A study of Trichoderma reesei with 36 samples.

Results

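Of the 9129 genes of *Trichoderma reesei* Rut-C30 in the count files, 119 (1.30%) had a count of 0 in every one of the 36 libraries. These silent genes were chosen by that rule alone, so that their zeros are a description and were not tested. For 29 of them the zero met a second, independent piece of information, since the mutation table of the study lists them as removed from this strain by 1 large deletion on scaffold 15. The other 90 lie outside that deletion, and 18 of these fill 7 small contigs on which no annotated gene had a read. The groups of silent genes named here other than the deletion were formed after the zeros were seen, from the positions of the genes.

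Messenger RNA was sequenced from fed-batch cultures of Rut-C30 (ATCC 56765), all of which first grew on glucose in batch mode and then received a feed of glucose alone (G100), of lactose alone (L100), of 75% glucose with 25% lactose (G75-L25) or of 90% glucose with 10% lactose (G90-L10). RNA was taken 24 h and 48 h after the feed began. Each starting culture was divided over flasks with different feeds, and the methods give as many flasks per feed as there are libraries at 1 time, 18 in all, so that libraries of 24 h and 48 h may share a flask. The labels do not say which do, and the tests below treat all libraries as independent. G100 and L100 had 6 libraries at each time, G75-L25 had 4 and G90-L10 had 2. The labels of the pure feeds begin with 2014 and those of the mixtures with 2015, so that a difference between pure feeds and mixtures cannot be told apart from one between these years. Every library came from the same strain, and no library of a strain without the deletion was analysed here, so that the files alone do not show what these genes do where they are present.

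Rut-C30 descends from the natural isolate QM6a through several rounds of mutagenesis and selection for cellulase secretion. It lost a stretch of scaffold 15 on the way, and it carries a shortened form of *cre1*, the gene of the carbon catabolite repressor that turns down cellulase genes on glucose. RNA sequencing counts pieces of transcripts, so that a gene is without reads both where it is missing from the genome and where it is present but not transcribed under the conditions sampled, and a table of counts does not separate these cases.

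The libraries held from 9955798 to 49808747 counts, with a median of 23493202, and 862912573 together. In a single library from 383 to 669 genes had no read, with a median of 493. The silent genes were from 17.8 to 31.1% of these. A count of 0 allows up to 3 counts, which is 0.0602 to 0.301 CPM (counts scaled to the total of the library) in a single library and 0.00348 CPM over all libraries together, against a median of 32.8 CPM over all genes. These limits cover counting error only. Earlier work on these files found 3 libraries apart from their groups, 2014_274 of L100 at 48 h, 2015-430 of G75-L25 at 24 h and 2015-431 of G75-L25 at 48 h. Without them 123 genes were silent, which by the rule include the 119. The lactose label was checked with the cellobiohydrolase genes *cbh1* and *cbh2* and the lactose permease gene *crt1*, which were all DE and higher on L100 than on G100 at both times. In 2014_274 *cbh1* had 4154 CPM, here and for single libraries below scaled to the TMM-normalized library size, against 159390 to 206465 CPM in the other L100 libraries of that time.

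The silent genes ran without a break into genes with very few reads. Over all libraries 43 genes had 1 count, 29 had 2 and 21 had 3, so that 93 genes (1.02%) stood just outside the rule at 1 to 3 counts. Another 120 genes had 4 to 10 counts, and 8797 (96.4%) had more than 10. The longest genes with a single count were ID 105157, ID 57433, ID 109351, ID 72568 and ID 73016, from 3303 to 1740 bp. Of the single counts, 11 fell in G100 at 24 h, 9 in G100 at 48 h, 7 in L100 at 24 h, 5 in L100 at 48 h, 3 each in G75-L25 at 24 h, G75-L25 at 48 h and G90-L10 at 24 h, and 2 in G90-L10 at 48 h, so that every group gave some. In the same order these groups held 14.0, 16.3, 17.5, 19.0, 11.5, 11.7, 5.34 and 4.64% of all counts. The spread over groups was not tested. In the other direction, 8112 genes (88.9%) had a read in every library, and 898 had reads in some libraries but not in all. Only 45 genes were seen in exactly 1 library, none of them with more than 2 counts there.

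**Figure D1:**
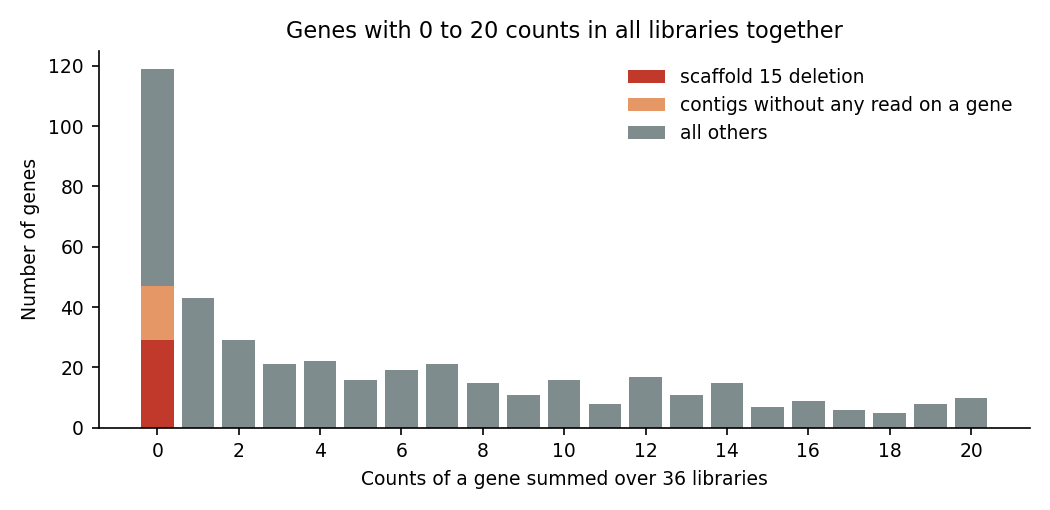
Number of genes (vertical axis) with each sum of counts from 0 to 20 over the 36 libraries (horizontal axis), with the genes of the scaffold 15 deletion and of contigs without any read on a gene in their own colours. The bar at 0 holds 119 genes, of which 29 are in the deletion and 18 on such contigs, while the bar at 1 holds 43 and the bar at 3 holds 21.

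The number of genes without a read fell as libraries were added up, fast at first and slowly at the end. Averaged over all choices of libraries, 509 genes were without a read in 1 library, 382 in 2, 181 in 12, 127 in 30 and 120 in 35. The last library added therefore removed about 1 gene from the list on average. With each library left out in turn, the list held 119 to 123 genes. A list over fewer libraries can only gain genes, so that the 29 listed deletion genes could not be lost from it.

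**Figure D2:**
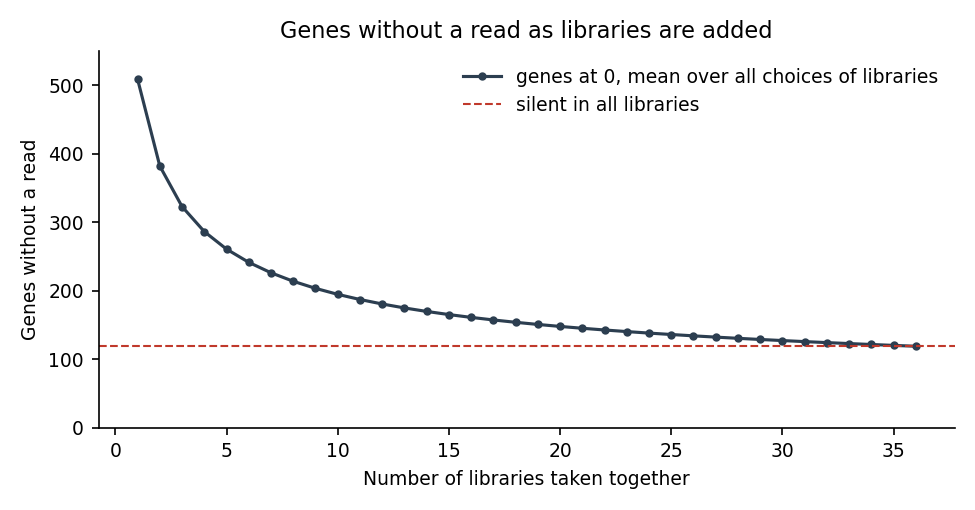
Mean number of genes without a read (vertical axis) over all ways of taking 1 to 36 libraries (horizontal axis). The points fall from 509 genes for 1 library to 181 for 12 and reach the dashed line at the 119 silent genes with all 36.

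The question for which the listed mutations are of use is which of the silent genes are missing from the genome. The mutation table gives a deletion at scaffold 15 from position 1060 to 86600, which is 85541 bp, and lists 29 genes for it. All 29 listed genes (100%) were silent, and they make up 24.4% of the silent genes. They were the only annotated genes inside or touching these borders, and they followed one another with no other gene between them, from ID 109199 (positions 247 to 3990) to ID 79726 (84689 to 85537). ID 109199 reaches 813 bp out of the deletion towards the scaffold's end, and this part had no read either. Positions are those of the v2.0 assembly of QM6a in the RefSeq gene table. All 64 exon mutations and all 14 intron mutations that were checked against the table fell inside the gene they are listed for.

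The deleted genes differ widely in size, and together they gave a large target for reads. Their lengths ran from 186 bp (ID 43418) to 8305 bp (ID 65172), with a median of 1403 bp, and their sum was 51639 bp. ID 109199 with 3744 bp, ID 25224 with 3017 bp and ID 109201 with 2327 bp were also without a read. The median length of all placed genes was 1503 bp. Only 1 of the 29 has a gene symbol in the table, *gld1* (ID 122778, positions 18217 to 19356), which encodes a glyceraldehyde reductase. Such an enzyme is known in the breakdown of D-galacturonic acid, the sugar acid of pectin, where it reduces L-glyceraldehyde to glycerol.

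**Figure D3:**
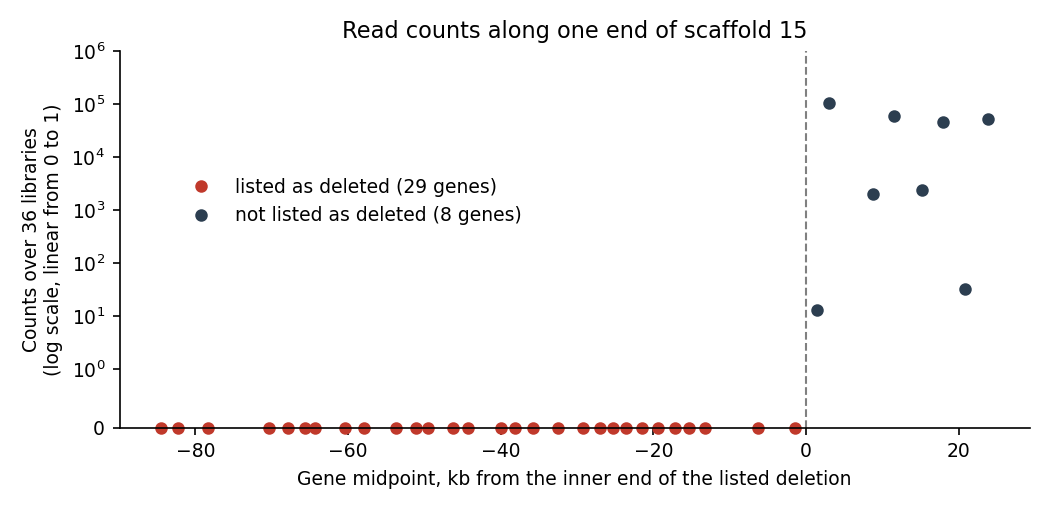
Counts summed over the 36 libraries (vertical axis, log scale that is linear from 0 to 1) for genes by their distance in kb from the inner end of the listed deletion (horizontal axis, dashed line at 0). The 29 listed genes lie at 0 counts, and the next gene beyond the line has 13 counts, followed by one with 101378.

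Beyond the inner end of the deletion the genes had reads again, at levels from low to high. ID 64996 (positions 87457 to 88602) begins 857 bp after the deletion's end and had 13 counts in 9 libraries, of which 8 were on G100, 2 on L100, 2 on G75-L25 and 1 on G90-L10. The next gene, ID 122783 (88689 to 90473), had 101378 counts. ID 65039 (94737 to 95939) had 2023 counts, ID 65070 (97256 to 98976) had 58550 and ID 65190 (101185 to 102494) had 2400. Each of these 4 was read in all 36 libraries. ID 64996 thus lay close to the silent genes in its level. Low and high genes alternated further out. Over all libraries together ID 65039 had 2.34 CPM and ID 65190 had 2.78 CPM, against a median of 32.8 CPM over all genes. ID 109231 (107212 to 107673) had 32 counts in 22 libraries.

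The genes beside the deletion could be compared between feeds, which the silent genes could not. No silent gene and none of the 213 genes with 1 to 10 counts passed edgeR's filter on low counts, and the lowest sum of a tested gene was 84. Of the 8347 genes tested, 4.22% were DE between L100 and G100 at 24 h and 3.5% at 48 h, with the threshold of the study at 0.001 for the adjusted p and at 2 for the size of the log2 fold change, in edgeR's quasi-likelihood test with Benjamini-Hochberg adjustment. At 24 h 226 of these genes (2.71% of those tested) were higher on L100 and 126 (1.51%) lower, and at 48 h 218 (2.61%) and 74 (0.887%). Without 2014_274 580 genes were DE at 48 h in place of 292, and a model of only the groups compared gave 75. Scaling by library size alone shifted the log2 fold changes by a median of -0.59 at both times, and the same split was then 142 against 299 and 128 against 169.

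ID 65039 was DE at both times. It had 0.303, 0.686 and 1.16 CPM on G100 at 24 h (lowest, median and highest of 6 libraries) and 2.53, 4.55 and 6.23 CPM on L100, and the groups did not overlap. At 48 h it had 0.623, 0.887 and 1.38 CPM on G100 and 1.19, 5.51 and 13.6 CPM on L100. The lowest of these was 2014_274, which lay within the range of G100, and the other 5 lay above it. Its log2 fold change was 2.69 ± 0.53 (SE, n = 6 and 6, edgeR adjusted p 9.45e-05) at 24 h and 2.72 ± 0.51 (edgeR adjusted p 6.38e-05) at 48 h. A model of only the groups compared gave 2.74 at 48 h with an edgeR adjusted p of 0.00119, which is no longer a call.

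The other 3 tested neighbours were not DE. ID 122783 had 119, 133 and 150 CPM on G100 at 24 h and 106, 116 and 128 CPM on L100, a log2 fold change of -0.20 ± 0.09 (n = 6 and 6, edgeR adjusted p 0.0621). ID 65070 had 66.3, 70.8 and 79.5 CPM on G100 and 62.7, 71.8 and 79.1 CPM on L100, and its log2 fold change of -0.01 ± 0.08 (edgeR adjusted p 0.918) changed sign with DESeq2, RLE scaling and a model of only the groups compared. ID 65190 was higher on L100 by 1.58 ± 0.28 on the log2 scale (edgeR adjusted p 2.79e-05), which is below the fold threshold. These values depend on the scaling. By library size alone the log2 fold changes at 24 h were -0.79 for ID 122783, -0.60 for ID 65070 and 0.99 for ID 65190. Their edgeR adjusted p values were then 1.54e-05, 0.000118 and 0.000805, still below the fold threshold.

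*cre1*, the only other gene that the table lists with a deletion, was not silent. It had 973461 counts over the 36 libraries, so that 29 of the 30 genes listed with a deletion were silent. Its gene model spans positions 785322 to 788378 of scaffold 2, and the listed deletion runs from 786555 to 789431. This leaves 1233 bp of the model (40.3%) outside the deletion. The counts are sums per gene, so that it cannot be seen from them which part of *cre1* the reads came from. ID 109199, of which the scaffold 15 deletion also leaves a part outside, had no read.

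*cre1* was read on every feed and in every group. It had 600, 678 and 729 CPM on G100 at 24 h and 570, 723 and 834 CPM at 48 h. On L100 it had 1357, 1601 and 1750 CPM at 24 h, above every G100 library. At 48 h L100 had 588, 1543 and 2005 CPM, with 2014_274 at 588 CPM inside the range of G100. The log2 fold change of L100 against G100 was 1.22 ± 0.17 (n = 6 and 6, edgeR adjusted p 1.00e-06) at 24 h and 1.01 ± 0.17 (edgeR adjusted p 1.50e-05) at 48 h, under the fold threshold. With scaling by library size alone it was 0.62 (edgeR adjusted p 5.75e-05) at 24 h and 0.36 (edgeR adjusted p 0.0109) at 48 h. G90-L10 had 1132 and 1148 CPM at 24 h, and G75-L25 had 1301 to 1678 CPM.

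Of the pathway to which *gld1* belongs, only the gene of the first step was looked at. *gar1* (ID 22004), the D-galacturonic acid reductase, was chosen after its values were seen. It had 27.1, 31.1 and 33.1 CPM on G100 at 24 h and 156, 183 and 198 CPM on L100, and it was DE with a log2 fold change of 2.58 ± 0.29 (n = 6 and 6, edgeR adjusted p 3.15e-08). At 48 h it had 22.7, 34.7 and 46.6 CPM on G100 and 18.4, 177 and 212 CPM on L100, the 18.4 CPM being those of 2014_274, with a log2 fold change of 2.18 ± 0.29 (edgeR adjusted p 4.33e-07). With scaling by library size alone it stayed under the fold threshold, at 1.99 at 24 h and less at 48 h, and with only the groups compared at 48 h the edgeR adjusted p was 0.00247. What these values mean for the pathway was not tested. *gld1* itself had 0 counts on every feed, as the rule for silent genes requires.

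Of the 136 genes in the files that the table lists with a mutation other than a deletion, none was silent. Of these 136 genes 1 had 3 counts or fewer, and their lowest sum was 2 counts. Among all genes in the files 119 of 9129 (1.30%) were silent. At that share few silent genes would be found among 136, so that their absence here is a description only.

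Of the 90 silent genes outside the deletion, 84 could be placed in the gene table and 6 could not (ID 42942, ID 43427, ID 71166, ID 71192, ID 71212 and ID 112695). Unplaced IDs are not low in general, since the 57 unmatched IDs in the files had a median of 8426 counts. The placed silent genes outside the deletion fell into 18 on contigs that were silent as a whole (15.1% of the silent genes) and 66 others (55.5%).

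The table holds 62 contigs, and small ones were often silent. Of the 11 contigs with 1 to 5 genes, 10 held a silent gene and 7 held nothing else, and 21 of their 28 genes (75%) were silent. On the 18 contigs with 6 to 50 genes 8 of 443 genes (1.81%) were silent. On the 33 contigs with at least 51 genes 84 of 8601 genes (0.977%) were silent, and this includes the deletion. Contigs are numbered by their order in the table, which equals the scaffold number for all 36 contigs that carry a listed mutation, the highest being 49. Beyond that a number is an order only.

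**Figure D4:**
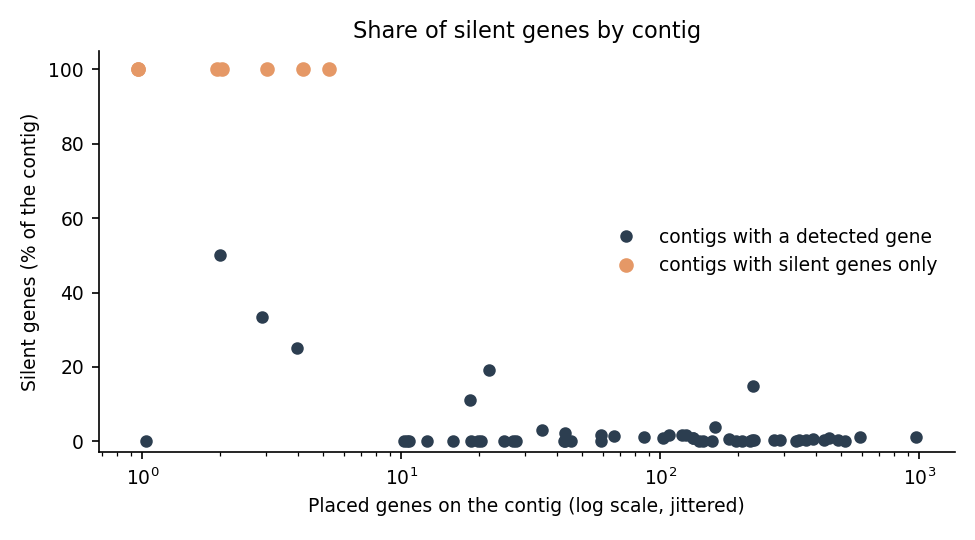
Share of silent genes in percent (vertical axis) for each of the 62 contigs by its number of placed genes (horizontal axis, log scale, points shifted slightly sideways). The 7 contigs at 100% have 1 to 5 genes, and among the large contigs the one that carries the deletion stands highest with 33 of 222 genes.

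The largest wholly silent contig was contig 47, with the 5 genes ID 112601 to ID 112605 between positions 1167 and 41882. Their lengths include 6146 bp (ID 112602) and 7117 bp (ID 112603), far above the median of 1503 bp for all placed genes. Contig 55 held the 4 genes ID 112674 to ID 112677, of which ID 112676 spans 7665 bp. Contig 57 held ID 112680 to ID 112682, contig 56 held ID 112678 and ID 112679, contig 59 held ID 71126 and ID 112687, and contigs 52 and 60 held ID 112651 and ID 112688 alone. The median length of these 18 genes was 1775 bp, and the median unannotated sequence, summed over both sides, of the 6 that are not at a contig's end was 8056.5 bp, against 2533 bp for all placed genes. The genes of these contigs thus stood far apart, and 3 of the 18 (16.7%) were over 5000 bp. Whether Rut-C30 still carries these contigs was not tested, and no mutation is listed for them. The paper's background mentions more large deletions in Rut-C30 than those listed by gene, so that absence from the list leaves this undecided.

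Silent genes were also frequent at the ends of contigs that did have reads. Outside the silent contigs 13 of 109 first or last genes (11.9%) were silent, 1 of which belongs to the deletion. Of the inner genes 88 of 8951 (0.983%) were silent, and 0.606% when the deletion and the silent contigs are left out. On contigs 28, 43 and 44 the genes at both ends were silent, ID 111588 and ID 111730 among 122 genes, ID 112518 and ID 112535 among 18, and ID 70921 and ID 112558 among 21. Contig 44 had 4 silent genes among its 21.

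Outside the deletion silent genes seldom stood beside one another on the large contigs. In all 8 runs of neighbouring silent genes were found with 51 genes, the deletion among them, and 62 placed silent genes stood alone. Besides the deletion and the silent contigs only contig 1 held such runs. The first run was ID 53452, ID 103043, ID 103044 and ID 103045, 4 genes over 22420 bp from position 2451265 to 2473684. It is flanked by ID 42043 with 2 counts and ID 2033 with 173 counts, the latter 13853 bp away. The second was ID 32402 and ID 103121 at positions 2725024 to 2727355, flanked by ID 103119 with 14 counts and ID 103122 with 6.

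Both runs belong to a single stretch of contig 1. All 11 silent genes of this contig lie within 427 kb, from position 2451265 to 2878306, where they are 11 of 134 genes (8.21%). None of the other 884 genes of the contig, whose last gene ends at 3752224, was silent. The borders of this stretch are those of the silent genes themselves, so that the share is a description. No deletion is listed for it, but the list does not hold every large deletion that the paper mentions. Reads fell on the other genes of the stretch, so that it was not silent as a whole.

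The 66 other placed silent genes had a lower median length than all placed genes, and some had quiet neighbours. Their median length was 1136 bp, and 6 of them (9.09%) were under 300 bp, against 80 of 9072 placed genes (0.882%). The shortest were ID 43401 with 156 bp, ID 43398 with 165 bp, ID 70921 with 180 bp and ID 54052 with 183 bp. Long genes occurred as well, since 4 (6.06%) were over 5000 bp, against 2.39% of all placed genes, and ID 104343 on contig 3 spans 6382 bp between neighbours with 259522 and 48338 counts. By these positions only ID 112689 of the placed silent genes overlaps another annotated gene. It lies on contig 61, whose borders no listed mutation could check, so that a missed border could also give this overlap.

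At least 1 direct neighbour with 10 counts or fewer was found for 17 of the 66 (25.8%), against 6.07% of all placed genes. Some of these neighbours are silent genes themselves, and so quiet by the rule. Among the 60 without a silent neighbour, 11 (18.3%) had a neighbour with 10 counts or fewer. The median count of neighbours was 1853.5 for the 66 and 5229.5 for the 60, against 28511 over all placed genes. The genes with 1 to 3 counts had a median length of 1000 bp and a neighbour with 10 counts or fewer for 27.5%. At the end of a contig lay 12 of the 66 (18.2%) and 1.10% of the genes with 1 to 3 counts. Genes under 300 bp were 9.09% of the 66 and 2.20% of the genes with 1 to 3 counts, and genes over 5000 bp were 6.06% and 0%. On contig 15 itself 4 of the 193 genes outside the deletion were silent, ID 65021, ID 109305, ID 109344 and ID 109388.

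More genes were silent when only 1 feed was considered, each of which has fewer libraries and fewer counts than the whole. Over the 12 libraries of G100 173 genes were without a read, over the 12 of L100 195, over the 8 of G75-L25 228 and over the 4 of G90-L10 302. The 119 silent genes were 68.8%, 61.0%, 52.2% and 39.4% of these. The 54 further genes on G100 had a median of 2 counts on the other feeds, and the 76 further genes on L100 had a median of 2 as well. Most genes that only G100 or only L100 missed were therefore close to 0 on the other feeds too.

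The gene without a read on G100 that had most counts on L100 was ID 106493. It had 71 counts in 11 of 12 L100 libraries, with 1, 2 and 5 counts (lowest, median and highest) at 24 h and 0, 9.5 and 17 at 48 h, and it had 14 counts on G75-L25 and 7 on G90-L10. ID 71077 and ID 103653 followed with 12 and 8 counts on L100. In the reverse direction ID 104816 had 18 counts on G100 and 0 on L100, ID 65494 had 11 and ID 111466 had 7. These genes were picked for this contrast, so that their values are a description. ID 106493 passed the filter on low counts only through its reads on feeds with lactose. It is one of the 292 DE genes at 48 h and not one of the 352 at 24 h. That call rests on the zeros by which the gene was picked and gives no support of its own.

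Single groups missed genes that were well read elsewhere, among them ID 110665 with 6014 counts over all libraries and 0 in all 6 of G100 at 24 h, its highest count being 738 in L100 at 48 h. ID 58717 had no read in either library of G90-L10 at 48 h, but 606 and 524 counts in its libraries with the most reads, the first of them G90-L10 at 24 h. ID 61995 had 147 counts, of which 100 fell in a single library of L100 at 24 h and no more than 5 in any other. These genes were named after their values were seen, as those with the most reads elsewhere in their groups.

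A gene that is silent in all libraries adds the same number to every library, so that the feeds were compared by the number of genes without a read in each single library, in which the silent genes cancel. Libraries were first thinned at random to 9955798 counts, the smallest total. At 24 h L100 then had 633, 665 and 692 genes without a read (lowest, median and highest of 6 libraries) and G100 had 554, 582.5 and 608. The means of 664.5 ± 20.1 and 585 ± 19.96 (SD, n = 6) differed by 79.5 genes, with an exact two-sided permutation p of 0.00216, the smallest that 6 against 6 can give, and 0.00361 after Benjamini-Hochberg adjustment over 5 comparisons. At 48 h L100 had 724 ± 26.2 and G100 624 ± 10.9 genes without a read, a difference of 99.7 with the same exact p and adjusted p. The groups did not overlap at either time.

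This difference between the feeds was lost on another scale. The 10 genes with the most counts took 5.93 to 7.91% of a G100 library at 24 h and 27.6 to 31.6% of an L100 library. At 48 h the L100 libraries ranged from 9.86%, in 2014_274, to 36.6%. When libraries were thinned to equal TMM-normalized size in place of equal totals, which was added after the data were seen, L100 had 668 ± 17.7 and G100 667.5 ± 9.85 genes without a read at 24 h (n = 6), a difference of 0.833 with an exact permutation p of 0.935, which is also its adjusted p. At 48 h the difference was 27 genes, 726.5 ± 27.0 against 699.5 ± 17.6, with an exact permutation p of 0.0671 (adjusted 0.0839). From 24 h to 48 h the difference between the feeds changed by 20.2 genes at equal totals and by 26.2 at equal TMM-normalized size. With time labels shuffled within each feed, the exact permutation p values were 0.462 and 0.305. Such shuffling also takes away any shift with time shared by the feeds. The test therefore cannot decide whether the effect of the feed was the same at both times.

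The mean number of genes without a read was higher at 48 h than at 24 h on both scales. At equal totals the difference was 39.3 genes on G100 (exact permutation p 0.00216, adjusted 0.00361), 59.5 on L100 (exact permutation p 0.00433, adjusted 0.00541) and 55.25 on G75-L25, where 705 ± 12.6 stood against 650 ± 22.1 (n = 4) with an exact permutation p of 0.0286, the smallest that 4 against 4 can give. The call on G75-L25 was lost with any of these 8 libraries left out (adjusted exact p 0.0571), and if both times came from the same flasks, a paired exact test could not go below 0.125 with 4 pairs or below 0.0312 with 6, so that the call on G75-L25 would not stand. At equal TMM-normalized size it was 32, 58.2 and 34.25 genes, with adjusted exact permutation p values of 0.0216, 0.0216 and 0.0476. In the counts as deposited the differences were 15.2, 19.5 and 49 genes and none was called. G90-L10 had 584 and 619 genes without a read at 24 h and 648 and 679 at 48 h at equal totals, with 2 libraries a time and no test.

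**Figure D5:**
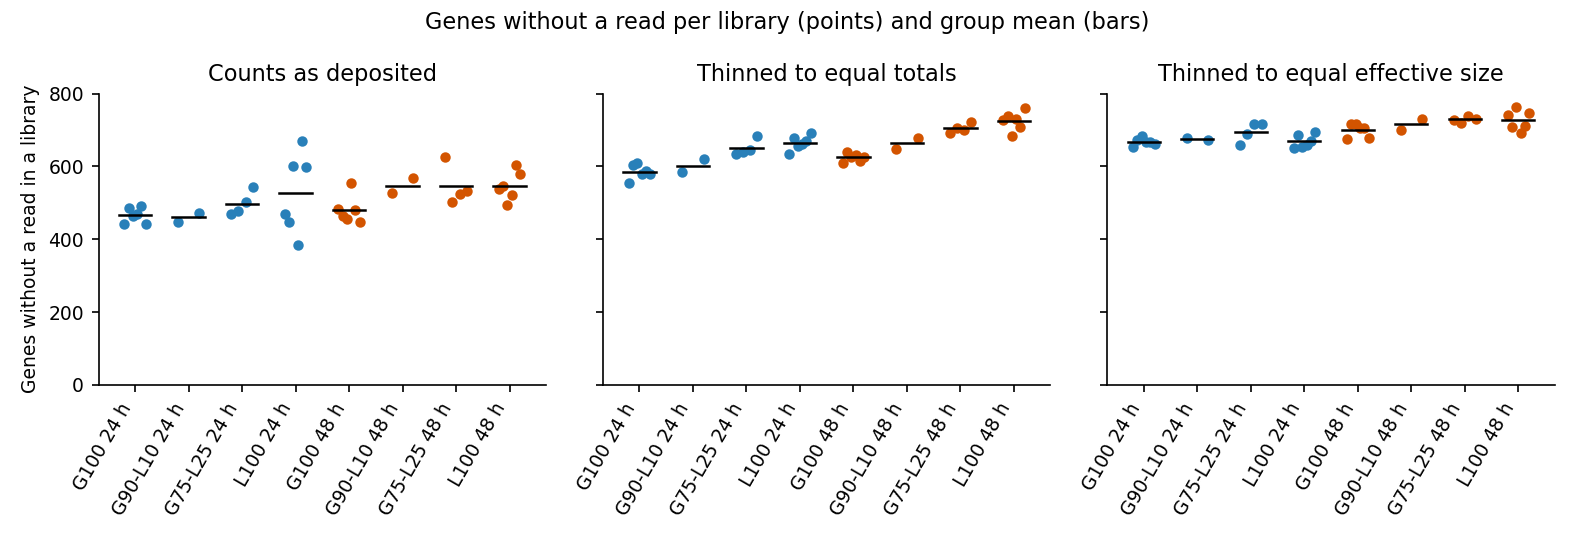
Number of genes without a read in each library (points) and the group mean (bars) for the counts as deposited, after thinning to equal totals and after thinning to equal TMM-normalized size, by feed and time (horizontal axis). At equal totals L100 at 24 h (633 to 692 genes) lies above G100 (554 to 608), and at equal TMM-normalized size the means are 668 and 667.5.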

How the data were processed

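Per the labels and the study's methods, RNA from 36 samples of fed-batch cultures was made into strand-specific libraries (TruSeq Stranded mRNA) and sequenced in 50-base reads, which were trimmed and filtered in the Eoulsan pipeline (at least 40 bases, mean quality at least 30). The submitters' notes name bcl2fastq 2.17.1.14, Bowtie and HTSeq 0.5.3, and genes follow the JGI annotation version 2. The authors deposited raw counts per gene and library, without normalization, on 9129 genes. How reads that match several places were treated is not given in the sources used here, and copies of genes were not searched for, as no genome was used. Silent genes are the IDs with a count of 0 in all libraries. This rule, the lists and the alternatives were chosen with earlier results of these data known.

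Genes were placed by locus tag with the RefSeq gene table of the v2.0 assembly (9072 of 9129 IDs, 113 of the 119 silent genes, 226 symbols), and contig borders were read where start positions fall back. A border is missed where the first gene of the next contig starts at a higher position. The numbers of small contigs and of genes at contig ends rest on these borders. Protein names and sequences were not used. Listed deletions came from the mutation table of the study. Libraries were grouped by the feed and time in their labels, and no pair of files was identical. The limit of 3 counts was the same for every library and was turned into CPM with its total counts, from 9955798 to 49808747. Genes without a read were counted after thinning (seed 1) and compared by exact two-sided permutation tests, with statsmodels 0.14.6 for adjustment. DE genes came from edgeR 4.0.16 in R 4.3.3 (TMM, filterByExpr with a minimum of 10 counts, 1 quasi-likelihood model of 8 groups, Benjamini-Hochberg adjustment, adjusted p below 0.001 and absolute log2 fold change above 2). In simulated counts on 8347 genes for L100 against G100 at 24 h, edgeR called 200 of 200 genes changed 8-fold and 0 others. Alternatives were DESeq2 1.42.0, RLE, library size alone, no filter, the 2 groups compared alone, other limits for silence, each label year, and each library left out.

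Genes were named by rule: those listed with a deletion, the 5 beyond its inner end, runs of neighbouring silent genes, the single silent gene with a symbol, the 5 longest genes with 1 count, and the 3 genes without a read on 1 pure feed with most counts on the other. Parts of the rule on proteins were not run. Other genes are named after their values were seen. Python 3.11.15, numpy 2.4.6, pandas 2.3.3, scipy 1.17.1 and matplotlib 3.10.9 were used.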

Additional observations from a re-analysis of the deposited data

Results flagged for a closer look

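In groups of 4 to 6 libraries, 7 values among 60 groups of values tested lay far from the rest of their group, where chance flags about 1 in 20. In 2014_274 (L100 at 48 h) 4 genes used beside the silent genes were lowest. *cbh1* had 4154 CPM against 159390 to 206465 in the others, *cbh2* had 2262 against 87279 to 112752, *crt1* had 1702 against 37529 to 54472 and *gar1* had 18.4 against 163 to 212. Next to the scaffold 15 deletion, ID 65039 had 7.10 CPM in 2015-430 (G75-L25 at 24 h) against 0.857 to 1.45, and 4.58 CPM in 2015-431 (G75-L25 at 48 h) against 0.840 to 1.02. ID 65070 had 76.7 CPM in 2015-426 (G75-L25 at 24 h) against 64.5 to 66.0. That none of these libraries had a read on a gene of the deletion follows from these genes being silent in every library, and is no separate check.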

How the results depend on the processing

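The number of silent genes depends on where the limit is set and on the libraries summed. It was 212 at up to 3 counts over all libraries, 250 at up to 1 count in every library, 170 with libraries thinned to the smallest total, 133 in the libraries of 2014, 196 in those of 2015, 123 without the 3 libraries that stand apart, and 119 to 123 with each library left out. By the way they are made, each of these lists must hold the 119 genes and with them the 29 listed deletion genes.

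The differences in genes without a read were called at equal totals and lost in the counts as deposited, at 62.8 (L100 against G100 at 24 h, adjusted exact p 0.286), 67.2 (48 h, 0.108, and 77.8 with 0.0866 also without 2014_274), 15.2 (48 h against 24 h on G100, 0.620), 19.5 (on L100, 0.697) and 49 (on G75-L25, 0.286). At equal TMM-normalized size the feeds differed by 0.833 and 27. With at least 2 thinned counts as detection G75-L25 differed by 40.75 (adjusted exact p 0.257). With a library left out the ranges were 73.3 to 85.8, 92.7 to 108, 33.1 to 43.9, 52.5 to 67.9 and 49.6 to 66 genes. The last lost its call in all 8 cases, with an adjusted exact p of 0.0571. As this is the smallest raw p that 3 against 4 can give, the loss was fixed in advance.

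DE genes at 48 h numbered 75 with only the groups compared, 586 without the 3 libraries and 249 to 580 with each left out, the 580 without 2014_274, against 292, and at 24 h 311 to 339 against 352. ID 65070 changed sign at 24 h with DESeq2 (0.0015), RLE (0.00051) and only the groups compared (0.0015), and at 48 h with the last (0.0019), and ranged from -0.048 to 0.0234 and from -0.0891 to 0.0378 with a library left out. Scaling by library size alone moved it most at 24 h, to -0.60. Of 216 recomputed values of single genes 200 kept their direction and call, 12 changed sign and 4 lost a call. The cause was not tested. No paired analysis was possible because the labels number the libraries serially and do not say which came from the same flask or starting culture.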
